A study of Mus musculus with 10 samples.

Results

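The 10 genes described here carry a WNT signal into the intestinal crypt and were taken by name from the deposited tables. They were the frizzled receptors Fzd1, Fzd2, Fzd5, Fzd7 and Fzd9, the co-receptors Lrp5 and Lrp6, and the ligands Wnt3, Wnt6 and Wnt9b. All 10 were found among the 54838 listed genes, and all 10 were among the 14719 genes that passed the filter on low counts and entered the test. No threshold on a measured value was used, but the choice was made with earlier results of these data known. The libraries came from crypts of the jejunum, 5 from WT and 5 from Arid3a cKO animals, with 1 library per mouse and polyadenylated RNA as the input. The cKO animals carried floxed Arid3a on both alleles and Villin Cre-ERT2, a tamoxifen-activated recombinase driven by the Villin promoter, so that deletion was directed to epithelial cells. Both genotypes received tamoxifen for 3 days, and crypts were collected 1 month after the first injection, after the villi had been scraped off. The alleles of the WT animals beyond that name, and the age of the mice, are not given in the sources used here.

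WNT proteins are secreted, lipid-modified ligands. They bind a frizzled protein, a receptor with several membrane passes, together with LRP5 or LRP6, a single-pass co-receptor, and the engaged pair recruits the β-catenin destruction complex so that β-catenin accumulates and acts with TCF/LEF factors in the nucleus. In the small intestine this pathway maintains the stem cells at the crypt base. Paneth cells, the secretory cells that sit between the stem cells, are a known source of WNT3, while Wnt6 and Wnt9b are further WNT genes known to be expressed in crypt epithelium. Mesenchymal cells under the crypt supply other WNT ligands.

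The libraries held 27050455 to 28152743 expected counts in WT and 28314069 to 31053622 in cKO, so that every cKO library was the deeper. After scaling, 1 CPM (counts divided by the TMM-scaled size of the library) corresponded to 26.4 to 29.9 counts. The deleted gene was counted 55 to 81 times in WT and 9 to 31 times in cKO libraries, and its log2 fold change was −1.84 (SE 0.32, adjusted p = 0.00204, edgeR's quasi-likelihood test). Epithelial markers such as Epcam (1250 ± 81.4 CPM in WT, SD, n = 5) and Krt8 (1820 ± 201 CPM) were abundant, and the sum of 11 mesenchyme markers was 22.8 to 104 CPM in WT. In cKO that sum was 19.7 to 39.7 CPM in 4 libraries and 159 CPM in cKO 4, which stood apart from its group. Bulk tissue cannot assign a transcript to a cell, so that the word epithelial in the description of the ligands was not checked here. The animal identifiers in the labels fell into a separate series for each genotype, so that colony or litter and genotype cannot be told apart.

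Fold changes below are cKO over WT on the log2 scale from edgeR's quasi-likelihood test, with the adjusted p taken over all 14719 genes and a threshold of 0.05. Of all tested genes, 28.3% passed that threshold, 15.6% higher and 12.7% lower in cKO. In the set of 10, the test called 2 higher (Fzd5 and Wnt6) and 3 lower (Fzd9, Lrp5 and Wnt3), and 5 did not pass. The groups did not overlap for 3 of 10 (Fzd9, Wnt3 and Wnt6), against 19.6% of all tested genes (12.0% higher and 7.63% lower in cKO). The median log2 fold change of the set was −0.36 and that of all tested genes was −0.03. Read against these percentages, counts of 2 and 3 among 10 genes are no result about the set as a whole. Wnt6 reached 10 counts in 1 of 5 WT and 5 of 5 cKO libraries, so that it passed the filter on low counts only through the group in which it was higher. Its values are therefore given as a description, and without it the counts were 1 higher and 2 without overlap (Fzd9 and Wnt3).

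**Figure D1:**
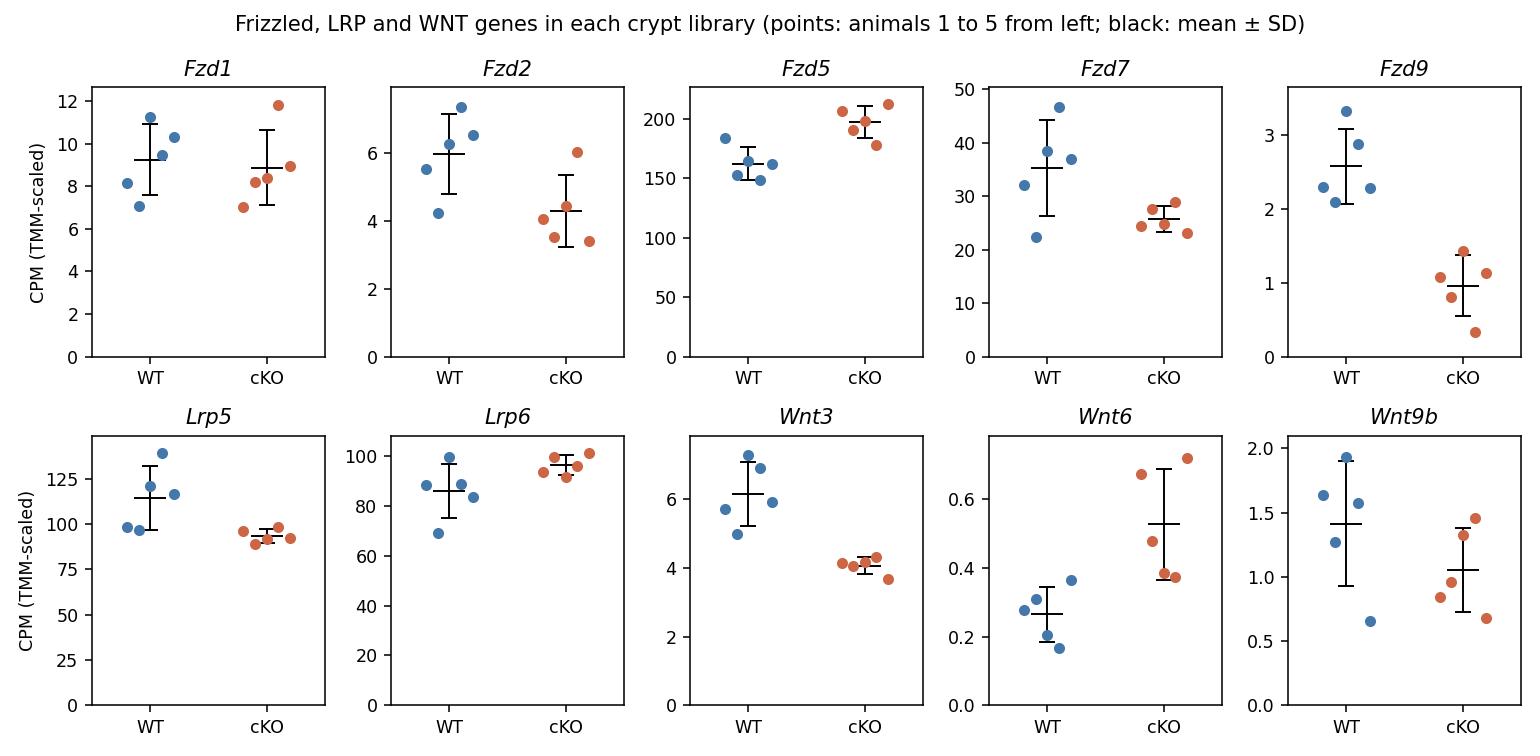
CPM of each of the 10 genes (vertical axes from 0, each panel with its own scale) in the 5 WT and 5 cKO crypt libraries, with points for animals 1 to 5 from left to right and bars for the mean and SD. The WT and cKO points are fully separate for Fzd9, Wnt3 and Wnt6, and Fzd5 overlaps by a single WT animal.

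The positions below are those of GENCODE M21 on GRCm38, the build that the deposited counts used. RefSeq promoters, 250 bases before to 50 bases after a start site on GRCm38.p6, were matched for 7 of the 10 genes (not for Fzd2, Lrp5 and Lrp6). Those of Wnt3, Fzd9 and Fzd5 are printed. Of the 5 genes that passed, these kept the call in the most alternatives, fits without 1 animal included. Over the other settings alone, Lrp5 was called in 12 of 13 and Fzd5 in 10 of 13, but Lrp5 had no matched promoter. Each runs 5′ to 3′ on the strand of its gene, and capitals mark a match, on either strand, to 1 of 4 motifs: the TCF/LEF motif ATCAAAG, the HNF4 motif CAAAGTNCA, the HNF1 half-site GTTAAT or the TATA box TATAAA.
Wnt3, chr11:103773925-103774224, plus strand: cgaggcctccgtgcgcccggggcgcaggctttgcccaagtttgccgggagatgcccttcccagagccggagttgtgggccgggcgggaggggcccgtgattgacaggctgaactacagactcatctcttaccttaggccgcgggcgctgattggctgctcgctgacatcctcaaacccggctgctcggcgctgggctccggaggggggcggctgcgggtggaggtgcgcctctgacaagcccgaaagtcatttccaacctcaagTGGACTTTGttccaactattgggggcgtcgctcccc
Fzd9, chr5:135250998-135251297, minus strand: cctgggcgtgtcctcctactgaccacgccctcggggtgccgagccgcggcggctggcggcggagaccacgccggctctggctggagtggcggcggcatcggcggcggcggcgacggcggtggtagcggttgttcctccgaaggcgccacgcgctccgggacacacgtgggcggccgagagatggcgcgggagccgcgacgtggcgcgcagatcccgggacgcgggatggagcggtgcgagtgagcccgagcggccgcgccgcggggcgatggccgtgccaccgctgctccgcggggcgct
Fzd5, chr1:64737701-64738000, minus strand: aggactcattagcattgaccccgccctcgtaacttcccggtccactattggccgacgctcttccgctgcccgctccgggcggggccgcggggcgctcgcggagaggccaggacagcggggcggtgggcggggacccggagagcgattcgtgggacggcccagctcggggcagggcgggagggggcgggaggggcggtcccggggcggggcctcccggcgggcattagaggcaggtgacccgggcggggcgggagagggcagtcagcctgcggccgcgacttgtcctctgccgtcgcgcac

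The Wnt3 window held 1 match to the HNF4 letters, at bases 15 to 23 after the start, on the strand opposite to the gene. Such a match is found in 1.41% of 32851 RefSeq promoters of the same length. The Fzd1 window held 1 TATA box, a motif found in 13.6% of promoters. None of the 7 windows held the TCF/LEF letters (3.73% of promoters) or the HNF1 half-site (7.1%). A match describes the letters and not binding. The share of G and C was 78% in Fzd9, 75.7% in Fzd5 and 65.7% in Wnt3, against a median of 52.7% over all promoters, and among the 7 windows it was lowest in Fzd1 at 54%. Fzd9 had 53 CpG dinucleotides in its 300 bases, more than 99.5% of promoters. Fzd5 had 38 and Wnt3 had 24 against a median of 7. RefSeq and GENCODE start sites differ for some of these genes. The Fzd9 window lies largely within the gene as GENCODE places it (135248938 to 135251230), so that much of it is transcribed sequence under that annotation. The windows of Fzd1 and Fzd7 lie wholly upstream of their GENCODE genes.

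Among the 10 genes, the most abundant was Fzd5, a frizzled known to be needed for Paneth cell maturation. Levels of different genes were compared in TPM, a transcript abundance that is divided by length and scaled to the same total in each library. Fzd5 had a mean of 33.0 TPM over the 10 libraries (28.1 to 37.0), followed by Lrp5 at 28.3, Lrp6 at 16.1 and Fzd7 at 8.69 TPM. The remaining levels were Fzd1 at 2.77, Wnt3 at 2.17, Fzd2 at 1.82, Fzd9 at 1.03, Wnt9b at 0.353 and Wnt6 at 0.301 TPM. Fzd5 lay above Lrp5 in 7 of 10 libraries and the ranges of the pair overlapped, so that this order did not exceed the spread. Lrp5 lay above Lrp6, and Fzd7 above Fzd1, in 10 of 10 libraries and without overlap of their ranges. Lrp6 exceeded Fzd7 in all 10 libraries although their ranges overlapped. Further down, the ranges of every neighbouring pair overlapped, and Wnt9b exceeded Wnt6 in only 6 of 10 libraries.

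Fzd5 lies on chromosome 1 from 64730558 to 64737751 on the minus strand. It was counted at 184, 153, 165, 148 and 162 CPM in WT 1 to 5 and at 206, 191, 199, 178 and 213 CPM in cKO 1 to 5. WT 1 lay above cKO 4, and the other 4 WT libraries lay below every cKO library. Mean Fzd5 was 162 ± 13.6 CPM in WT and rose to 197 ± 13.5 CPM (SD, 5 animals per genotype). The log2 difference was 0.28 (SE 0.07, 95% interval 0.12 to 0.44, adjusted p = 0.0145), and the two-sided exact permutation test over animals gave p = 0.0159. The change was called without any 1 of the 10 animals. It was not called when libraries were scaled by total count alone (0.15, adjusted p = 0.116) or on TPM with limma (0.18 with either pseudocount, adjusted p = 0.113), which shifted the median of all genes to −0.16, −0.13 and −0.10. The mean TPM of Fzd5 was 31.0 ± 3.33 in WT and 35.1 ± 1.89 in cKO. An unstranded count could include Gm38058, an annotated transcript on the other strand that overlaps it by 1512 bases and had at most 7.04 counts.

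Of the 5 frizzled genes taken, Fzd9 had the largest fold change. It is an intronless gene on chromosome 5 (135248938 to 135251230, minus strand) that encodes a frizzled best known in bone and nervous tissue. Its level was 2.30, 2.10, 3.33, 2.88 and 2.29 CPM in WT 1 to 5, and 1.08, 0.81, 1.43, 0.34 and 1.14 CPM in cKO 1 to 5. All WT libraries lay above all cKO libraries. Mean Fzd9 was 2.58 ± 0.51 CPM in WT and fell to 0.96 ± 0.41 CPM (SD, 5 animals per genotype), and the log2 fold change was −1.42 (SE 0.31, 95% interval −2.09 to −0.76, adjusted p = 0.00604; exact permutation p = 0.00794, the smallest that 5 animals against 5 can give). Behind these values were 61 to 98 counts in WT and 10 to 41 in cKO libraries, few enough for a large counting error in cKO. The call was kept under all 23 alternatives, with values from −1.61 to −0.73.

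Fzd7, a receptor known for WNT signal reception in Lgr5+ stem cells, lies on chromosome 1 from 59482424 to 59486955. It had 32.1, 22.4, 38.5, 46.8 and 36.9 CPM in WT 1 to 5 and 24.5, 27.6, 24.9, 28.9 and 23.0 CPM in cKO 1 to 5. WT 2 had the lowest value of all 10 libraries, and the other 4 WT libraries lay above every cKO library. The means were 35.3 ± 8.98 and 25.8 ± 2.40 CPM (SD over 5 animals), with a log2 fold change of −0.45 (SE 0.16, 95% interval −0.80 to −0.11, adjusted p = 0.0513; exact permutation p = 0.0635), just outside the threshold. Without WT 2 it passed (−0.58, adjusted p = 0.00254), as it did with all animals under DESeq2 (−0.44, adjusted p = 0.0270), with scaling by total count alone (−0.59, adjusted p = 0.0182) and with a filter of at least 10 counts in every sample (−0.44, adjusted p = 0.0447).

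Fzd2 (chromosome 11, 102604396 to 102608058) and Fzd1 (chromosome 5, 4753839 to 4758035) are both single-exon frizzled genes of low level. Fzd2 had 5.54, 4.24, 6.28, 7.37 and 6.55 CPM in WT 1 to 5 and 4.08, 3.54, 4.44, 6.05 and 3.41 CPM in cKO 1 to 5. The groups overlapped through cKO 4 and WT 2. Its log2 fold change was −0.48 (SE 0.19, 95% interval −0.88 to −0.07, adjusted p = 0.0742; exact permutation p = 0.0556), and it was −0.63 (adjusted p = 0.0242) without cKO 4, the library in which the mesenchyme markers were highest. Whether those cells contribute to the Fzd2 value was not tested. Without WT 2 it was −0.58 (adjusted p = 0.0278).

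Fzd1 did not move detectably. It had 8.15, 7.06, 11.2, 9.45 and 10.3 CPM in WT 1 to 5 and 7.04, 8.18, 8.39, 11.8 and 8.93 CPM in cKO 1 to 5, and the groups overlapped throughout. The log2 fold change was −0.06 (SE 0.16, 95% interval −0.40 to 0.28, adjusted p = 0.802), so that a decrease by 0.40 or an increase by 0.28 lies within the interval. Its highest value in cKO was again in cKO 4.

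Counted per length, the 10 frizzled genes of the genome summed to 43.7 to 59.0 TPM in WT (median 56.9) and 48.8 to 53.8 TPM in cKO (median 52.0), and the ranges overlapped. Fzd5 made up 51.7 to 64.3% of that sum in WT (median 59.0) and 62.8 to 70.9% in cKO (median 67.7), with the ranges overlapping. The share of Fzd7 was 14.4 to 24.8% in WT (median 20.0) and 11.8 to 15.6% in cKO (median 12.9), which also overlapped. Fzd9 made up 2.46 to 3.49% in WT and 0.372 to 1.51% in cKO, without overlap. Shares of one sum cannot move independently of each other, and no test was made on them.

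**Figure D2:**
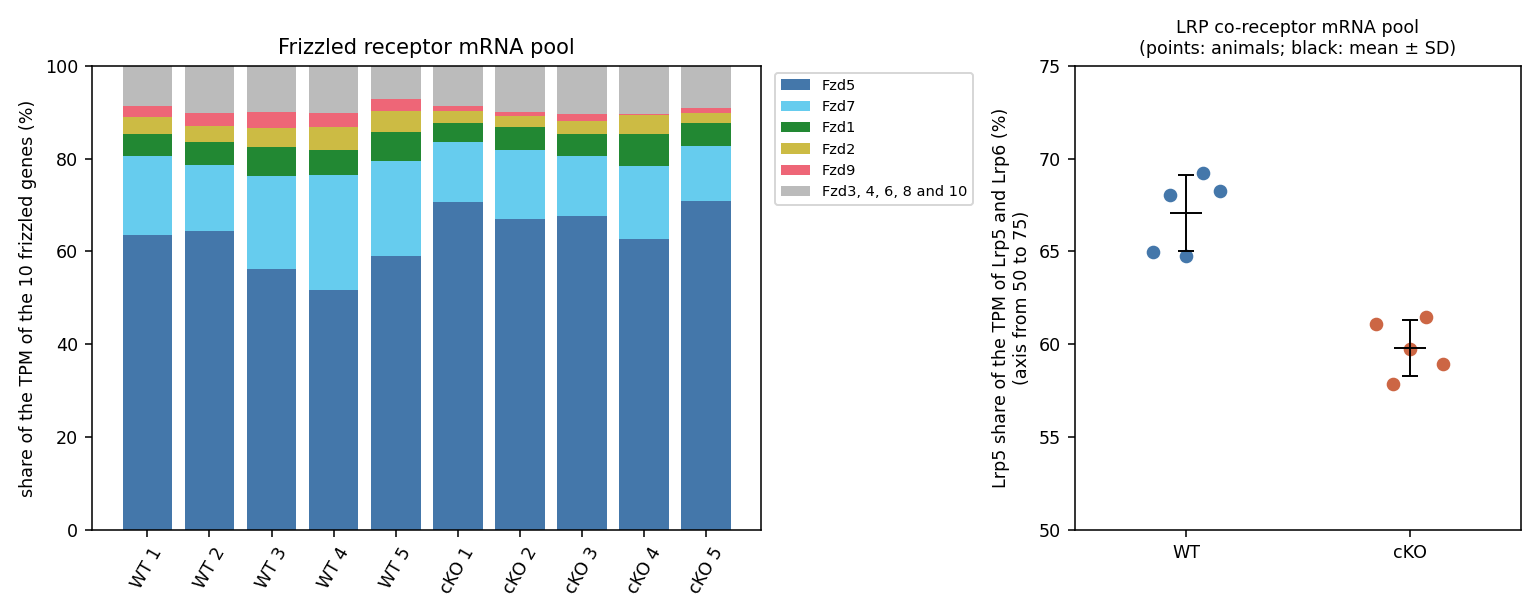
Left, the share of the summed TPM of 10 frizzled genes taken by each receptor in every library (stacked bars, percent). Right, the share of Lrp5 in the TPM of Lrp5 and Lrp6 together (percent, axis from 50 to 75), with points for animals and bars for mean and SD, in which the 5 cKO libraries (57.9 to 61.5%) lie below the 5 WT libraries (64.7 to 69.2%). No test was made on these shares.

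The co-receptors Lrp5 and Lrp6 had fold changes of opposite sign, of which that of Lrp5 passed the test. Lrp5, on chromosome 19 from 3584828 to 3686564, had 98.2, 96.5, 121, 139 and 117 CPM in WT 1 to 5 and 96.1, 88.9, 91.8, 98.5 and 92.0 CPM in cKO 1 to 5. WT 1 and WT 2 lay in the cKO range and the other 3 WT libraries lay above it. Mean Lrp5 was 114 ± 17.6 CPM in WT and fell to 93.4 ± 3.82 CPM (SD, 5 animals per genotype). On the log2 scale the change was −0.29 (SE 0.09, 95% interval −0.49 to −0.09, adjusted p = 0.0371; exact permutation p = 0.0238). This call depended on the animals included, since it was kept in 2 of the 10 fits that left out an animal (without WT 1 and without WT 2) and lost in the other 8, in which the adjusted p was at most 0.0846.

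Lrp6 (chromosome 6, 134446476 to 134566965) had 88.4, 69.4, 99.5, 88.8 and 83.8 CPM in WT 1 to 5 and 93.7, 99.9, 91.9, 96.2 and 101 CPM in cKO 1 to 5. WT 3 lay within the cKO range and the other 4 WT libraries lay below it. The log2 fold change was 0.17 (SE 0.08, 95% interval −0.02 to 0.35, adjusted p = 0.155; exact permutation p = 0.0556), which did not pass the threshold here or in any of the 23 alternatives. As a share of the TPM of both genes, Lrp5 was at 64.7 to 69.2% in WT (median 68.0) and 57.9 to 61.5% in cKO (median 59.7), so that the libraries of the genotypes did not overlap in this ratio. Neither gene alone separated the groups in CPM. No test was made on the ratio, and how many gene pairs separate in this way was not counted.

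Wnt3, the ligand with the largest share of WNT mRNA in these crypts, fell in cKO. It had 5.71, 4.99, 7.30, 6.90 and 5.93 CPM in WT 1 to 5 and 4.14, 4.06, 4.16, 4.32 and 3.67 CPM in cKO 1 to 5. Every WT library exceeded every cKO library, and the cKO libraries lay close together. The means were 6.17 ± 0.93 and 4.07 ± 0.24 CPM (SD over 5 animals), with a log2 fold change of −0.60 (SE 0.13, 95% interval −0.88 to −0.32, adjusted p = 0.00575; exact permutation p = 0.00794), on 145 to 215 counts in WT and 97 to 127 in cKO. The call was kept under all 23 alternatives (−0.73 to −0.47). Wnt3 lies on chromosome 11 from 103774150 to 103817957.

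Wnt9b is the neighbour of Wnt3 (103727364 to 103749821, on the other strand). Their start sites are 24.3 kb apart with 0 protein-coding genes between them. It had 1.64, 1.27, 1.93, 1.57 and 0.655 CPM in WT 1 to 5 and 0.842, 0.959, 1.33, 1.46 and 0.681 CPM in cKO 1 to 5, with overlap throughout. The log2 fold change was −0.42 (SE 0.31, 95% interval −1.09 to 0.24, adjusted p = 0.322; exact permutation p = 0.254), on 18 to 57 counts per library, and the interval includes both 0 and the value of Wnt3.

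Wnt6 (chromosome 1, 74771892 to 74785322) was the only one of the 3 ligands with a higher mean in cKO, at 0.279, 0.310, 0.204, 0.167 and 0.364 CPM in WT 1 to 5 and 0.674, 0.479, 0.385, 0.374 and 0.719 CPM in cKO 1 to 5. The groups did not overlap, but the counts were 5 to 10 in WT and 11 to 20 in cKO, so that the gap between the groups was 1 count. The fitted log2 difference was 0.98 (SE 0.32), and no p is given because Wnt6 entered the test only through its cKO counts. Over the fits that left out an animal the difference was 0.85 to 1.13, and on TPM + 0.1 with limma it was 0.42. In TPM the groups overlapped, at 0.12 to 0.35 in WT and 0.23 to 0.53 in cKO. The transcript length that RSEM assigned to Wnt6 ranged from 1251 to 2071 bases between libraries, and on the length-corrected scale the difference was 0.67. Gm29539, an antisense transcript that overlaps Wnt6 by 2463 bases, had 0 counts.

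**Figure D3:**
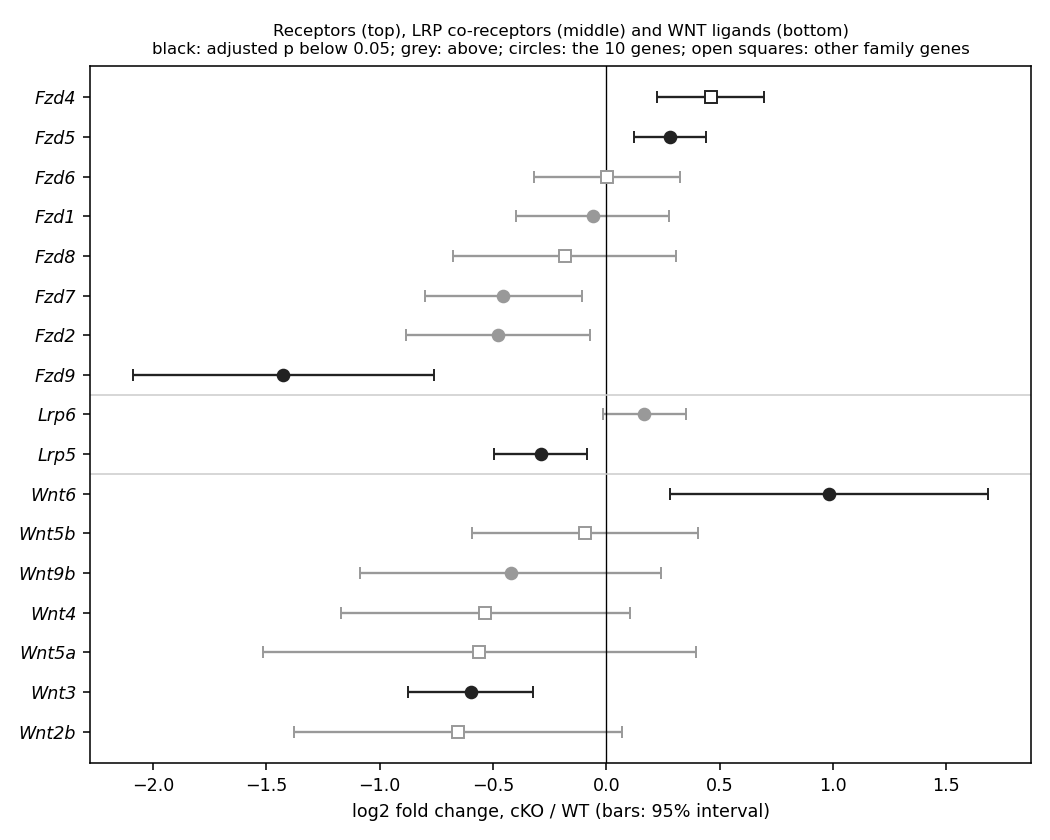
Log2 fold change (cKO over WT, horizontal axis) of the 10 genes (circles) and of the other tested frizzled and WNT genes (open squares), with points for the edgeR estimate, bars for its 95% interval, and black for an adjusted p below 0.05. Fzd9 at −1.42 and Wnt3 at −0.60 lie clear of 0 on the lower side and Fzd5 at 0.28 on the higher side. Wnt6 entered the test only through its cKO counts, so that its mark is a description only.

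All 19 WNT genes together summed to 4.51 to 6.0 TPM in WT (median 5.04) and 3.15 to 4.11 TPM in cKO (median 3.36), without overlap. Wnt3 held 41.5 to 55.5% of it in WT (median 53.5) and 44.5 to 50.6% in cKO (median 46.8), so that its share overlapped while the sum was lower. Of the 16 other WNT genes, 4 passed the filter on low counts. Their log2 fold changes were −0.65 for Wnt2b (adjusted p = 0.162), −0.56 for Wnt5a (0.362), −0.53 for Wnt4 (0.191) and −0.09 for Wnt5b (0.787), and 0 of 4 passed with edgeR, 0 with DESeq2 and 0 at an unadjusted p under 0.05. Wnt5a and Wnt2b are ligands known from the mesenchyme, and each had a mean below 1 CPM.

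Of the other 5 frizzled genes, 3 were tested and 1 passed. Fzd4, a receptor for WNT ligands and for norrin, was at 7.62, 6.99, 7.57, 7.24 and 6.04 CPM in WT 1 to 5 and at 9.44, 9.18, 11.7, 10.1 and 8.44 CPM in cKO 1 to 5, and the groups did not overlap. Mean Fzd4 was 7.09 ± 0.64 CPM in WT and rose to 9.76 ± 1.22 CPM (SD, 5 animals per genotype; log2 fold change 0.46, SE 0.11, adjusted p = 0.00938). The call was kept in 21 of 23 alternatives and was not made on TPM + 0.1 (0.34, adjusted p = 0.131). In the edgeR fit, Fzd6 was at 0.0040 (adjusted p = 0.988) and Fzd8 at −0.18 (adjusted p = 0.573). Fzd3 and Fzd10 did not pass the filter.

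The other WNT pathway genes were 70 in all, of which 38 were tested. The test called 9, of which 4 were higher and 5 lower, against 28.3% of all tested genes, and the median log2 fold change was −0.20 against −0.03 for all tested genes. With edgeR, 0 passed among the 2 secretion genes, 2 R-spondin or LGR genes, 2 receptor ubiquitin ligases and 5 inhibitors that were tested. Wls and the inhibitor Dkk3 had an unadjusted p under 0.05 and were called by DESeq2, and the other genes of these lists were neither. Dkk3 reached 10 counts in 5 of 5 WT but 1 of 5 cKO libraries, so that it entered the test only through WT. Wls, which carries WNT proteins to the cell surface, was close to the threshold (59.8 ± 7.25 and 49.4 ± 5.19 CPM, log2 fold change −0.28, adjusted p = 0.0524). Lgr5, the R-spondin receptor that marks crypt stem cells, was at −0.17 on the log2 scale (adjusted p = 0.653) and Lgr4 of 0.11 (adjusted p = 0.397). Rnf43 and Znrf3, which remove frizzled proteins from the surface, were at −0.15 (adjusted p = 0.454) and −0.27 (adjusted p = 0.166). Ror2, an alternative WNT receptor, was lower (−0.51, adjusted p = 0.0287), a call kept in 16 of 23 alternatives. Ptk7, a WNT co-receptor of the same list, was at −0.50 (adjusted p = 0.0551) and was called by DESeq2.

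Of 17 tested intracellular transducers, 7 passed, against 28.3% of all tested genes. Axin2, the classical target and feedback inhibitor of the pathway, was at 213 ± 33.0 CPM in WT and fell to 155 ± 12.7 CPM in cKO (SD, 5 animals per genotype; log2 fold change −0.46, SE 0.10, adjusted p = 0.00746). Tcf7, a TCF factor of the pathway and one of its known targets, fell by 0.56 (adjusted p = 0.00586), while Tcf7l2, the main TCF factor of the intestinal epithelium, rose by 0.39 (adjusted p = 0.00398). Both Tcf genes were without overlap between the groups. Axin1, a scaffold of the destruction complex, fell by 0.22 (adjusted p = 0.0377), and Pygo2, a nuclear co-activator of β-catenin, by 0.26 (adjusted p = 0.0139). Gsk3a (0.22, adjusted p = 0.0399) and Csnk1a1 (0.22, adjusted p = 0.0196), kinases of the complex, were higher, but under scaling by total count alone they were at 0.09 (adjusted p = 0.296 and 0.306). On TPM + 0.1 Csnk1a1 was at 0.0045 (adjusted p = 0.972), with means of 183 TPM in WT and 182 TPM in cKO. Axin2, Tcf7 and Pygo2 were called in all 23 alternatives, Tcf7l2 in 21, Csnk1a1 in 16, Axin1 in 14 and Gsk3a in 9.

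**Figure D4:**
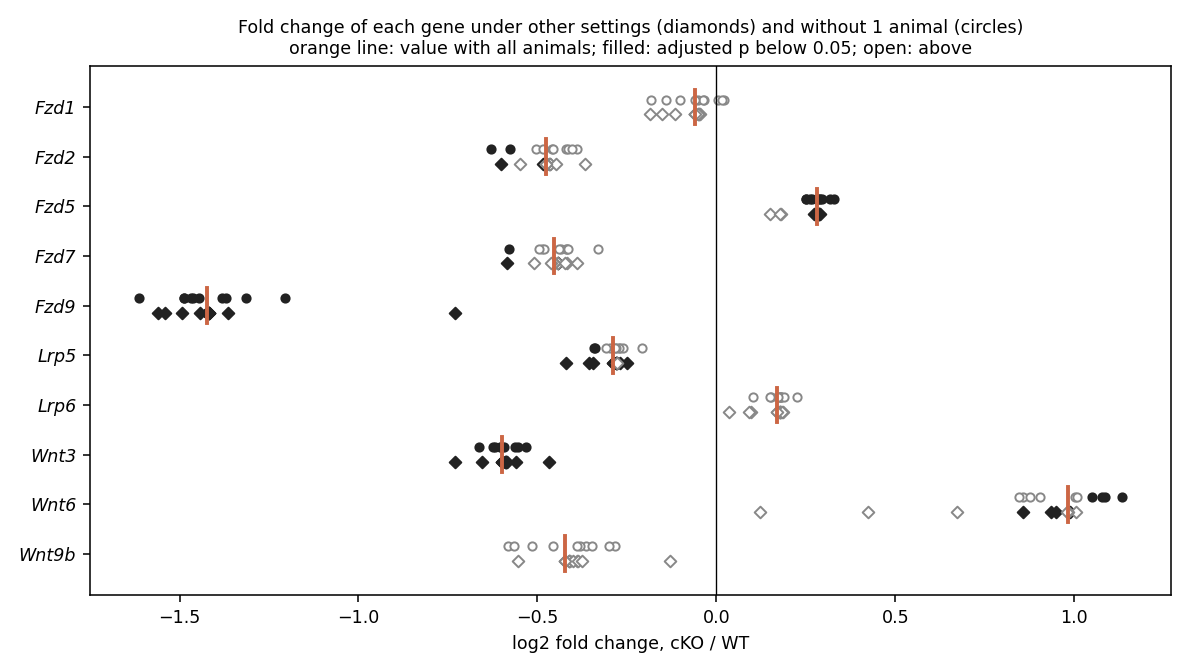
Log2 fold change of each of the 10 genes (cKO over WT, 1 row per gene) with all animals (orange line), without 1 animal (circles) and under other settings (diamonds), filled where the adjusted p was below 0.05. Fzd9 and Wnt3 stay negative and called at every setting, Fzd1 crosses 0, and Fzd2, Fzd5, Fzd7, Lrp5 and Wnt6 are called at some settings only (Fzd5 at all but 3 of 23). With all animals Wnt6 passed the main filter only through its cKO counts, so that its fill is a description only.

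Some cell type markers moved with genotype in these libraries, and each list was summed per library. For comparison, 15.6% of all tested genes were called higher and 12.7% lower in cKO. The 7 Paneth cell markers summed to 17530 to 25650 CPM in WT (median 19120) and 11060 to 14890 CPM in cKO (median 13350), and 6 of 7 passed the test as lower. The 5 stem cell markers (Lgr5, Olfm4, Ascl2, Smoc2 and Axin2) summed to 4703 to 7724 CPM in WT (median 6214) and 3676 to 5557 CPM in cKO (median 4415). Of these, 4 of 5 were lower, all but Lgr5. Axin2 is also the WNT target given above, so that this list is not separate from the pathway genes. The 7 enterocyte markers summed to 915 to 4678 CPM in WT (median 2422) and 6147 to 11250 CPM in cKO (median 8561), and 7 of 7 were higher. The 7 enteroendocrine markers summed to 344 to 419 CPM in WT and 447.5 to 678.5 CPM in cKO. Of these, 2 of 7 were higher, a count too small to be a result about the list. No list had a marker at 0 in every library.

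Wnt3, Fzd9, Lrp5, Fzd7 and Lrp6 had their 2 highest WT values in WT 3 and WT 4. These libraries had the highest stem cell and the lowest enterocyte marker sums. WT 2, with the highest enterocyte sum in WT (4678 CPM), had the lowest WT value of each. Lrp6 shared this pattern although its mean was higher in cKO. Fzd1, Fzd2, Fzd5, Wnt6 and Wnt9b did not have their 2 highest WT values in that pair of libraries. In order of rising enterocyte sum within WT (WT 4, 3, 5, 1 and 2), Fzd5 was at 148, 165, 162, 184 and 153 CPM. Within cKO, cKO 4 had the highest stem cell sum (5557 CPM) and an enterocyte sum of 11228 CPM, close to the highest (11247 CPM in cKO 5). That library had the highest cKO values of Wnt3 (4.32 CPM), Lrp5 (98.5 CPM) and Fzd7 (28.9 CPM) and the lowest of Fzd9 (0.34 CPM). Lrp6 (96.2 CPM) was neither highest nor lowest there. The Paneth cell sum of cKO 4 was 11282 CPM, close to the lowest (11057 CPM in cKO 5). The part of cell type markers in the changes of these genes was not tested. In bulk tissue, fewer cells of a type and less RNA per cell cannot be told apart.

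The 5 endothelial markers summed to 2.96 to 6.52 CPM in WT and 1.69 to 2.95 CPM in cKO (2 of 3 tested lower), and the 7 immune markers to 57.7 to 108 CPM and 25.2 to 63.2 CPM (1 of 7 lower). Of 11 mesenchyme markers 1 was lower, and the sums overlapped (22.8 to 104 CPM and 19.7 to 159 CPM). The counts of 1 lower immune and 1 lower mesenchyme marker are near the 12.7% of all tested genes that were lower. They are no result about those lists. The 7 epithelial markers summed to 6158 to 7231 CPM in WT and 7020 to 7987 CPM in cKO, with Vil1 higher (646 ± 118 to 1122 ± 164 CPM). Their part in the receptor and ligand values was not tested.

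**Figure D5:**
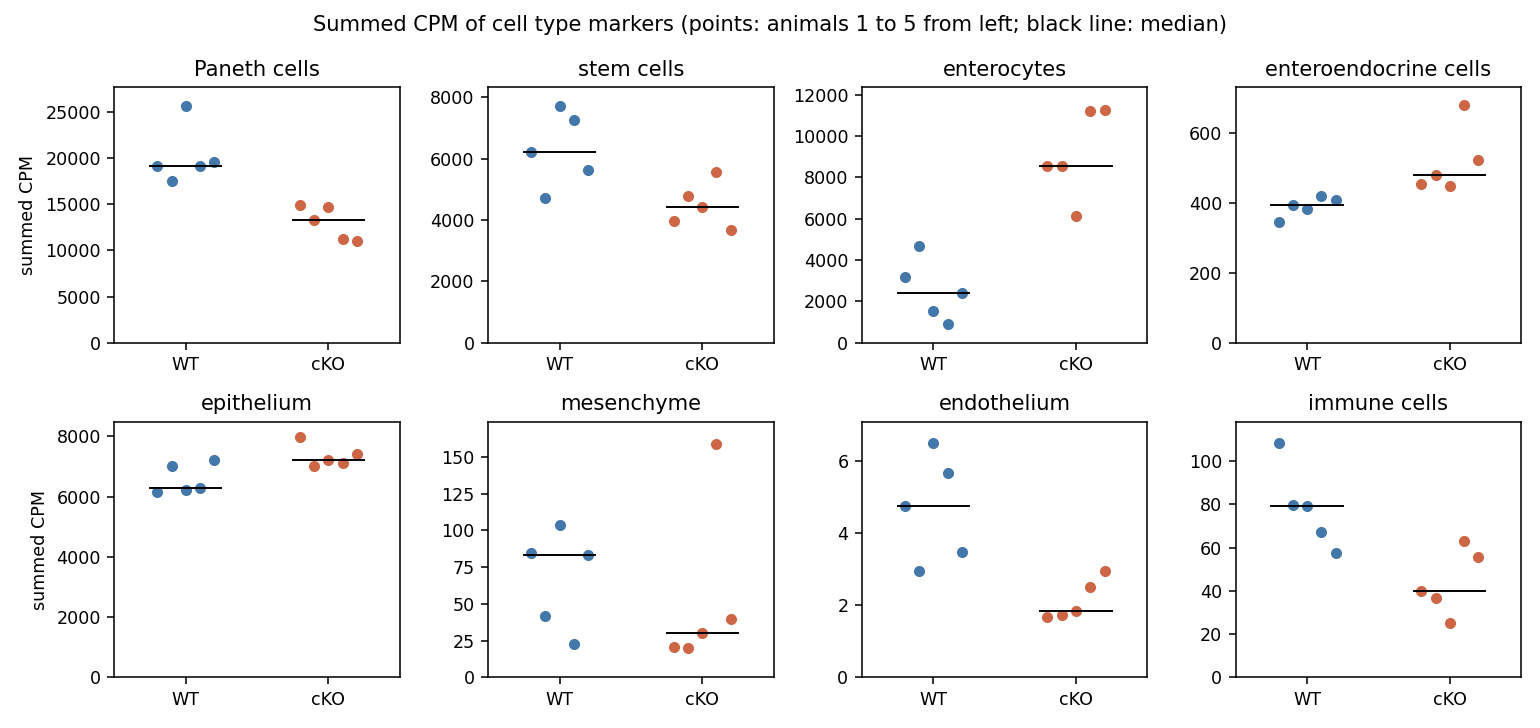
Summed CPM of 8 marker lists in each library (vertical axes from 0, each panel with its own scale), with points for animals 1 to 5 from left to right and lines for the group median. Paneth sums lie between 17530 and 25650 CPM in WT and between 11060 and 14890 CPM in cKO, and enterocyte sums are higher in every cKO than in every WT library.

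Genes with the most similar profiles were found by the Pearson correlation of log2(CPM + 0.5) over the 10 libraries, among 10464 genes with a mean of at least 5 CPM, for the 5 genes that passed the test. These are descriptions over libraries that share 2 genotypes. The closest to Wnt3 were Slc41a1 (r = 0.988) and Clic4 (r = 0.986), and to Lrp5 Uhrf1bp1 (r = 0.978) and Polr1b (r = 0.976). Fzd5 was closest to Gcnt4 (r = 0.960) and Ccdc6 (r = 0.956), and Fzd9 to Saal1 (r = 0.961) and Recql (r = 0.957). Wnt6 was closest to Tprgl (r = 0.963) and Afp (r = 0.954). With the genotype means removed, these correlations were between 0.870 and 0.960. The pairs were picked as the highest among 10464 genes over these same libraries, so that high values were partly fixed by that choice.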

How the data were processed

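Transcripts were measured in crypts of 5 WT and 5 cKO mice, and groups were taken from the labels. The authors aligned reads with STAR and estimated counts by RSEM (nf-core/rnaseq) against an Ensembl annotation of GRCm38. They deposited the expected counts of 54838 genes, with no normalization between libraries, beside TPM and FPKM values, which are divided by length and library size. The strand setting is not given in the sources used here. RSEM divides reads between similar genes.

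The counts were rounded and tested with edgeR 4.0.16 under R 4.3.3 (filterByExpr with minimum count 10 and minimum total 15, TMM, robust quasi-likelihood test, Benjamini-Hochberg adjustment, threshold 0.05). CPM used TMM-scaled libraries. Exact permutation tests, two-sided over 252 assignments, used log2(CPM + 0.5). TPM (and FPKM as an alternative) gave levels and, with limma 3.58.1, as an alternative on log2(TPM + 0.1) and log2(TPM + 1). Other alternatives were DESeq2 1.42.0, limma-voom, other scaling and filters, a length offset, 1 surrogate variable (sva 3.50.0), a replicate block and leaving out each animal. Totals of 26.4 to 29.9 counts per CPM leave genes near 1 CPM with a large counting error, and reads carry no molecular identifiers. No source says that animals were littermates. The scripts were tested on simulated data. Genes without a symbol took 0.0193% of counts.

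All members were named, with every other frizzled and WNT gene that passed the filter, other pathway genes past the threshold (Wls, Dkk3, Ptk7, Lgr5, Lgr4, Rnf43, Znrf3, Epcam, Krt8 and Vil1 were added after their values were seen), and the 2 genes most similar to each called member. The members and lists were chosen with earlier results of these data known. Protein sequences were not used here.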

Additional observations from a re-analysis of the deposited data

Results flagged for a closer look

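In 68 tests of 5 animals each for a library far from the rest of its group, 5 were found, and chance alone gives about 1 in 20. Ror2 was at 9.113 CPM in cKO 4, against 6.066 to 6.784 CPM in the other cKO libraries. The summed mesenchyme markers of the same library were at 158.7 CPM, against 19.69 to 39.74 CPM. Csnk1a1 was at 307 CPM in WT 5, against 339.2 to 351.9 CPM in the other WT libraries, and Pygo2 was at 54.15 CPM in the same library, against 47.73 to 49.01 CPM. The summed Paneth cell markers were at 25650 CPM in WT 3, against 17530 to 19550 CPM. None of the 10 receptor, co-receptor and ligand genes had such a library.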

How the results depend on the processing

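The number of the 10 genes called higher (2) was 1 with DESeq2, library size only, no filter on low counts, at least 10 counts in every sample (where Wnt6 could not be fitted), an effective length offset and the replicate block, and 0 on TPM with both pseudocounts. Leaving out each animal gave 1 to 2 higher and 2 to 5 lower (5 without WT 2). These numbers include Wnt6 where it was called, although with all animals it passed the main filter only through its cKO counts. The number called lower (3) was 5 with library size only and 4, with Fzd7 added, with DESeq2 and with at least 10 counts in every sample. Over all genes, 1869 were lower and 2298 higher. Library size only gave 4030 lower (10.5% higher against 27.4% lower of tested genes), the replicate block 1191 lower, and leaving out each animal 1131 (without WT 4) to 2112 lower and 1760 to 2572 higher. TPM gave 1405 and 1420 higher with pseudocounts 0.1 and 1, about 9.6% higher against 18.6% lower. Fzd1 turned positive without WT 3 (0.021), WT 5 (0.0048) and cKO 1 (0.015), within a range of −0.18 to 0.021 over the animals left out. The cause of these shifts was not tested. With the replicate number as a block, Fzd2 passed (−0.48, adjusted p = 0.0472) while Lrp5 (adjusted p = 0.0516) and Wnt6 did not, and the other 7 genes kept their call. The numbers do not pair the animals, since same-numbered deviations correlated at −0.157 to 0.131 and 0 of 5 matched best. The order of TPM levels kept all 10 ranks with FPKM and without each animal. Wnt6 (5 to 20 counts), Fzd9 (10 to 98) and Wnt9b (18 to 57) rest on few counts per library.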
